A study of Mus musculus with 4 samples.

Results

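The unfolded protein response and the integrated stress response were examined through 10 genes in mouse gastrocnemius muscle, Eif2ak3, Ern1, Atf4, Xbp1, Ddit3, Trib3, Chac1, Ppp1r15a, Herpud1 and Edem1. The genes are a list of named members, given without a threshold on their values but drawn up with earlier results of these data known, and they are 10 of the 22252 gene names in the deposited tables. Gene expression was measured by RNA-seq in 4 groups of 7-week-old male C57BL/6J mice, and each group gave 1 library, for which RNA of 3 mice had been pooled. All 4 groups were homozygous for a floxed Nr3c1 gene, which encodes the glucocorticoid receptor (GR). Lean GRf/f mice carried no Cre and had wild-type leptin (Lep) alleles, and lean GRmKO mice differed from them by 1 copy of Cre. The ob/ob GRf/f and ob/ob GRmKO mice were the same 2 genotypes on a leptin-deficient (Lepob/ob) background. Cre was driven by Acta1, which restricts the loss of GR to myofibers, so that the other cells of the muscle kept the receptor. The comparisons asked how obesity changed these genes with and without muscle GR, and how the loss of muscle GR changed them in lean and in obese mice.

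Unfolded proteins in the endoplasmic reticulum (ER) are sensed by PERK, IRE1 and ATF6, which reside in its membrane. PERK, like the kinases GCN2, PKR and HRI that respond to other stresses, phosphorylates the translation factor eIF2, which lowers protein synthesis in general but favors the translation of ATF4. ATF4 then turns on genes for amino acid supply and, with CHOP, genes that end or follow the stress. IRE1 splices the Xbp1 mRNA, and spliced XBP1 together with ATF6 raises ER chaperones and the machinery that degrades misfolded ER proteins. In skeletal muscle, these pathways respond to contraction, lipid load and the supply of amino acids. Because ATF4 is controlled largely in translation and XBP1 by splicing, gene-level mRNA values such as those used here do not read the activity of either factor.

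Library totals ranged between 19897754 and 20959781 expected counts, and 3 counts corresponded to 0.143 to 0.151 CPM (a gene's counts scaled to a common library total). Of all gene names, 14206 had a count above 0 in every library and were compared, and all 10 members were among them. The spread between mice was not measured, so no test was made. A gene is described as higher or lower in a comparison where its CPM differed by at least 1.5-fold, and the share of all genes past that fold is given as the background. Confidence intervals are 95% intervals (exact Poisson for a level, exact conditional binomial for a ratio) and cover counting error only. The targeted gene Nr3c1 was at 125 CPM in lean GRf/f, 67.1 in lean GRmKO, 102 in ob/ob GRf/f and 39.2 in ob/ob GRmKO muscle, and Fkbp5, which GR induces, was at 89.0, 22.9, 106 and 26.1 CPM. Both were lower in each GRmKO library than in the GRf/f library of the same background, although a gene-level count does not show the loss of the floxed exon itself. The skeletal muscle markers Acta1, Ckm and 6 others summed to between 109740 and 127088 CPM with none at 0. The log2 fold change of the median gene with obesity was -0.11 in GRf/f and -0.21 in GRmKO muscle. Changes relative to the median gene are therefore also given where they matter. In bulk muscle, fewer cells of a type and less RNA per cell cannot be told apart.

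Promoter windows from RefSeq (GRCm38.p6, 250 bases before to 50 after the annotated start) were searched on both strands for 4 motifs of these pathways. They were the C/EBP-ATF response element (CARE, TGATGNAA) that ATF4 binds, the ER stress response element (ERSE, CCAAT and CCACG separated by 9 bases), ERSE-II (ATTGG and CCACG separated by 1 base) and the XBP1 element (UPRE, TGACGTGG). Of 32851 windows, 3.97% held CARE, 0.119% ERSE, 0.0365% ERSE-II and 0.676% UPRE. All 10 members had a window. CARE was found in 3 of them, Chac1, Herpud1 and Trib3, ERSE-II in Herpud1, and neither ERSE nor UPRE in any. The windows of these 3 members are shown because they carry the motif of the pathway, together with those of Atf3, a transcription factor that ATF4 induces, and Creld2, an ER folding factor, whose values are given with the related genes. The capitals mark the motif, which on the opposite strand reads as its reverse complement.
Chac1 (chr2:119350992-119351291, plus strand): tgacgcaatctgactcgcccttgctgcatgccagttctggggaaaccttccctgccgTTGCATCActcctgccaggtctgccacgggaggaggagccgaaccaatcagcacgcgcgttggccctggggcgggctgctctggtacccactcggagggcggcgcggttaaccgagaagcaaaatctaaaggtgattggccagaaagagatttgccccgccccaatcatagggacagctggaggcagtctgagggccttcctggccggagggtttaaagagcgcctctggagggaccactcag
Trib3 (chr2:152344011-152344310, minus strand): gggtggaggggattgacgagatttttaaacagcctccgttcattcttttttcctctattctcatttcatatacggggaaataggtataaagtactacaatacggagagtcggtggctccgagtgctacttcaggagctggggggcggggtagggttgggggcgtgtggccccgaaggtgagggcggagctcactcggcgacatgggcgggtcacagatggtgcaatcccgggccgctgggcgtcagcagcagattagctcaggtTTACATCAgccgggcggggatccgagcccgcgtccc
Herpud1 (chr8:94386179-94386478, plus strand): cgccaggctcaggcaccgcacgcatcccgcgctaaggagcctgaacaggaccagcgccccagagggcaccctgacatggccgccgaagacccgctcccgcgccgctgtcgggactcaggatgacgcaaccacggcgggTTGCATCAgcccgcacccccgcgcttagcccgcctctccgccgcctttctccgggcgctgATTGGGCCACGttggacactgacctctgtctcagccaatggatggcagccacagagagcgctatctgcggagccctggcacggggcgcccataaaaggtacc
Atf3 (chr1:191183284-191183583, minus strand): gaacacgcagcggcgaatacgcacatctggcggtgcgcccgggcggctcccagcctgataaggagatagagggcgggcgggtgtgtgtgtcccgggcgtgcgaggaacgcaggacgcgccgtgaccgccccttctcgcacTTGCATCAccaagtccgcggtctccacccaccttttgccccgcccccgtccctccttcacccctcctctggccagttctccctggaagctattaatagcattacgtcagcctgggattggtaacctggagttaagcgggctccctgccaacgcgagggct
Creld2 (chr15:88819396-88819695, plus strand): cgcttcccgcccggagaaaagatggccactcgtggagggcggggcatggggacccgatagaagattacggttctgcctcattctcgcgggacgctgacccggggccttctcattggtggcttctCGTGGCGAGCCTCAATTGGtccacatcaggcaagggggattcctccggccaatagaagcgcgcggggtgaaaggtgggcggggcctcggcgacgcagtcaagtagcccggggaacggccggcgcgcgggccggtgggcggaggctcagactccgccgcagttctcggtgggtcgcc
The CARE of Chac1 began 193 bases before the start and that of Atf3 110 bases before it. In Herpud1, CARE began 112 and ERSE-II 52 bases before the start, without overlap. The CARE of Trib3 lay 14 bases after the start, and the ERSE of Creld2 began 126 bases before it. A match describes these letters and does not show binding.

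Per kilobase of the listed transcript, Herpud1 and Atf4 were the most abundant of the 10 genes in every library, and the sensors and Trib3 were low. In lean GRf/f muscle, the levels were 111 CPM per kilobase for Herpud1, 107 for Atf4, 63.3 for Chac1, 48.8 for Xbp1, 14.7 for Ppp1r15a and 13.1 for Ddit3. Eif2ak3 followed at 2.99, Edem1 at 2.59, Ern1 at 1.94 and Trib3 at 0.883 CPM per kilobase. The neighbors Herpud1 and Atf4, Ppp1r15a and Ddit3, and Eif2ak3 and Edem1 did not differ beyond their counting error in this library. In both ob/ob libraries Atf4 was above Herpud1 beyond counting error. Chac1 went from rank 3 of 10 in lean GRf/f to rank 4 in lean GRmKO and rank 6 in both ob/ob libraries. Trib3 had rank 10 in all 4 libraries, although its interval overlapped that of Ern1 in both ob/ob libraries. The intervals of Chac1 and Ddit3 overlapped in ob/ob GRf/f muscle.

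**Figure D1:**
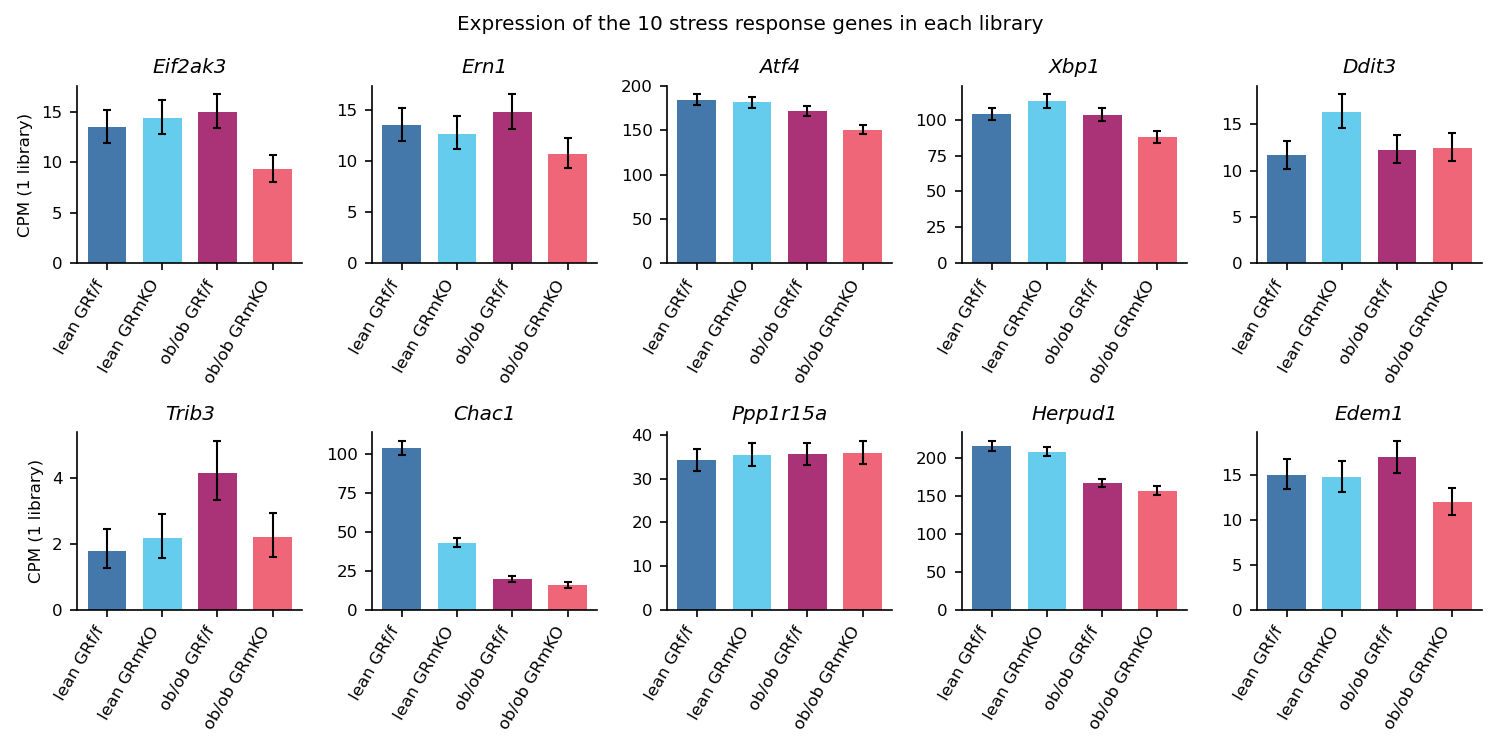
Level of each of the 10 genes in the 4 libraries, in CPM (linear axis from 0, scaled for each gene). Each bar is 1 library of pooled RNA and the lines are 95% counting intervals. Chac1 falls from 104 CPM in lean GRf/f to 15.6 CPM in ob/ob GRmKO muscle, Trib3 is highest in ob/ob GRf/f muscle at 4.16 CPM, and Ppp1r15a lies between 34.2 and 35.9 CPM.

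Among the sensors, Eif2ak3 encodes PERK and lies at chr6:70844515-70905245 (GRCm38, plus strand). It was at 13.5 CPM in lean GRf/f, 14.4 in lean GRmKO, 15.0 in ob/ob GRf/f and 9.32 in ob/ob GRmKO muscle. The ob/ob GRmKO library stood below the other 3, whose intervals overlapped. Its log2 fold change in ob/ob GRmKO muscle was -0.68 against ob/ob GRf/f (95% interval, -0.95 to -0.42) and -0.63 against lean GRmKO muscle (-0.90 to -0.36). Relative to the median gene these values were -0.65 and -0.42, so that the difference from lean GRmKO muscle was under 1.5-fold on that scale. Ern1, which encodes IRE1 alpha (chr11:106394650-106487852, minus strand), was at 13.5, 12.7, 14.8 and 10.7 CPM in the same order of libraries. It too was lowest in ob/ob GRmKO muscle, where its interval overlapped those of both lean libraries, and its log2 fold change against ob/ob GRf/f was -0.46 (-0.72 to -0.21), less than 1.5-fold. Atf6, the gene of the third sensor and not one of the 10, was at 46.7, 48.4, 59.1 and 54.7 CPM, higher in both ob/ob libraries by less than 1.5-fold.

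Of the transcription factors among the members, Atf4 and Xbp1 differed by less than 1.5-fold between any of the libraries compared. Atf4 (chr15:80255184-80257541, plus strand) was at 185 CPM in lean GRf/f, 182 in lean GRmKO, 172 in ob/ob GRf/f and 151 in ob/ob GRmKO muscle. Its log2 fold changes lay between -0.27 and -0.02 over the 4 comparisons, and that of obesity in GRf/f muscle, -0.10, was 0.00 with TMM factors and 0.02 with DESeq2 size factors. Xbp1 (chr11:5520659-5525893, plus strand) was at 104, 113, 104 and 88.1 CPM. Its value in ob/ob GRmKO muscle was below the other 3 beyond counting error, with a log2 fold change of -0.23 against ob/ob GRf/f (-0.33 to -0.14). Spliced and unspliced Xbp1 are not separated in gene-level counts.

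Ddit3, which encodes CHOP, a factor tied to cell death after prolonged stress, lies at chr10:127290774-127296288 (plus strand). It was at 11.6 CPM in lean GRf/f, 16.4 in lean GRmKO, 12.2 in ob/ob GRf/f and 12.5 in ob/ob GRmKO muscle. Only the lean GRmKO library stood apart. Its log2 fold change against lean GRf/f was 0.49 (0.25 to 0.74), or 1.40-fold, which is under the fold used here. Ddit3 overlaps Mars on the opposite strand and another entry of the same name on its own strand, and whether the libraries kept strand is not given in the sources used here, so its counts are uncertain to that extent.

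Of the genes that ATF4 and CHOP induce, Chac1 differed most. It encodes an enzyme that degrades glutathione and lies at chr2:119351229-119354381 (plus strand). Chac1 was at 104 CPM in lean GRf/f (95% interval, 99.3 to 108), 42.7 in lean GRmKO (39.9 to 45.7), 19.4 in ob/ob GRf/f (17.6 to 21.4) and 15.6 in ob/ob GRmKO muscle (13.9 to 17.4). None of these intervals overlapped. In ob/ob GRf/f muscle it was 5.33-fold lower than in lean GRf/f muscle, a log2 fold change of -2.42 (-2.57 to -2.26) or -2.30 relative to the median gene. Of the 11141 genes with a mean of at least 50 counts, 21 were lower by as much, Chac1 included. In lean muscle, loss of GR went with a 2.43-fold lower level (log2 -1.28, -1.40 to -1.16), and 68 of the 11141 genes were lower by as much. On the GRmKO background, obesity went with a 2.74-fold lower level (log2 -1.45, -1.64 to -1.27). Between the 2 ob/ob libraries the log2 fold change was only -0.32 (-0.53 to -0.11). The change with obesity was thus smaller by 0.96 on the log2 scale in GRmKO than in GRf/f muscle (counting interval, 0.72 to 1.20), which was not tested over mice. The summed level of the 6 adipocyte markers, all detected in every library, also fell in this order, at 977, 632, 564 and 348 CPM. Cfd (268, 145, 14.4 and 8.92 CPM) and Fabp4 (484, 374, 308 and 211 CPM) carried that order, while Adipoq, Plin1, Cidec and Lep did not follow it, and Lep was highest in ob/ob GRf/f muscle at 69.7 CPM. The erythroid markers fell in the same order in sum, at 2232, 2130, 972 and 873 CPM, and all of them but Alas2 followed it. The slow fiber markers rose in that order in sum, at 469, 610, 1023 and 1442 CPM. The part of these cells and fibers in the level of Chac1 was not tested.

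Trib3 encodes a pseudokinase that restrains ATF4, CHOP and AKT (chr2:152337422-152344032, minus strand). It was at 1.79 CPM in lean GRf/f, 2.17 in lean GRmKO, 4.16 in ob/ob GRf/f and 2.20 in ob/ob GRmKO muscle, from 37.0, 43.0, 87.0 and 46.0 expected counts. The ob/ob GRf/f library stood above the other 3, which overlapped in their intervals. Its log2 fold change with obesity was 1.22 in GRf/f muscle (0.65 to 1.81) and 0.02 in GRmKO muscle (-0.61 to 0.66), and the change in GRmKO minus that in GRf/f muscle was -1.20 (counting interval, -2.01 to -0.38). In ob/ob GRmKO against ob/ob GRf/f muscle its log2 fold change was -0.92 (-1.47 to -0.39). The 5 fibroblast markers were also highest in that library in sum, at 3997, 4434, 6996 and 4055 CPM in the order of the libraries above, with none at 0. Only Col1a1 (1282, 1266, 4113 and 2279.9 CPM) and Col3a1 (1309.7, 1605, 1856 and 1031 CPM) were highest there, and Dcn, Lum and Pdgfra were highest in lean GRmKO muscle. Their part in the level of Trib3 was not tested.

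Ppp1r15a encodes GADD34, which directs the dephosphorylation of eIF2 and so ends the block of translation (chr7:45522916-45526268, minus strand). It was at 34.2, 35.4, 35.6 and 35.9 CPM in lean GRf/f, lean GRmKO, ob/ob GRf/f and ob/ob GRmKO muscle. All 4 intervals overlapped, and every log2 fold change lay between 0.01 and 0.06. It overlaps Tulp2 on the opposite strand.

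Of the genes for ER-associated degradation, Herpud1, a membrane component of the degradation complex (chr8:94386438-94395377, plus strand), was at 217 CPM in lean GRf/f and 209 in lean GRmKO, and at 168 in ob/ob GRf/f and 157 in ob/ob GRmKO muscle. Both ob/ob libraries were below both lean libraries. The log2 fold change with obesity was -0.37 in GRf/f (-0.43 to -0.31) and -0.41 in GRmKO muscle (-0.48 to -0.34), or -0.25 and -0.20 relative to the median gene, less than 1.5-fold in each case. Edem1, which hands misfolded glycoproteins to degradation (chr6:108828641-108859356, plus strand), was at 15.1, 14.8, 17.0 and 12.0 CPM. Its lowest level was in ob/ob GRmKO muscle, where its interval overlapped those of both lean libraries, with a log2 fold change of -0.50 against ob/ob GRf/f (-0.74 to -0.26), less than 1.5-fold.

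In ob/ob against lean GRf/f muscle, 1 of the 10 genes was higher, Trib3, where 7.95% of all genes were, and 1 was lower, Chac1, where 16.6% of all genes were. With TMM factors, 10.7% of all genes were higher and 13.0% lower, and the same members were past the fold. The median member changed by 0.06, and the median of all genes by -0.11. In ob/ob against lean GRmKO muscle, 0 members were higher (7.79% of all genes) and 2 were lower, Eif2ak3 and Chac1 (24.0% of all genes). With TMM factors these shares became 12.7% and 16.0%, and Eif2ak3 was no longer past the fold. The members' median was -0.33, against -0.21 for all genes. Neither count stands apart from the background.

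In lean GRmKO against lean GRf/f muscle, 0 members were higher (9.44% of all genes) and 1 was lower, Chac1 (7.78% of all genes), with medians of 0.01 for the members and 0.05 for all genes. In ob/ob GRmKO against ob/ob GRf/f muscle, 0 members were higher (8.59% of all genes) and 2 were lower, Eif2ak3 and Trib3 (12.2% of all genes). Here 8 of the 10 genes had values below 0, with a median of -0.28 against -0.04 for all genes, and the counting interval of each of these 8 excluded 0. Of the 11141 genes with a mean of at least 50 counts, 56.3% were below 0 in this comparison, and 28.5% were so with an interval that excluded 0. The counts of members past the fold are again near the background. The 4 comparisons share libraries, so their values are not independent of each other: the low levels of Eif2ak3, Ern1, Xbp1 and Edem1 in the ob/ob GRmKO library enter both comparisons that use it.

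**Figure D2:**
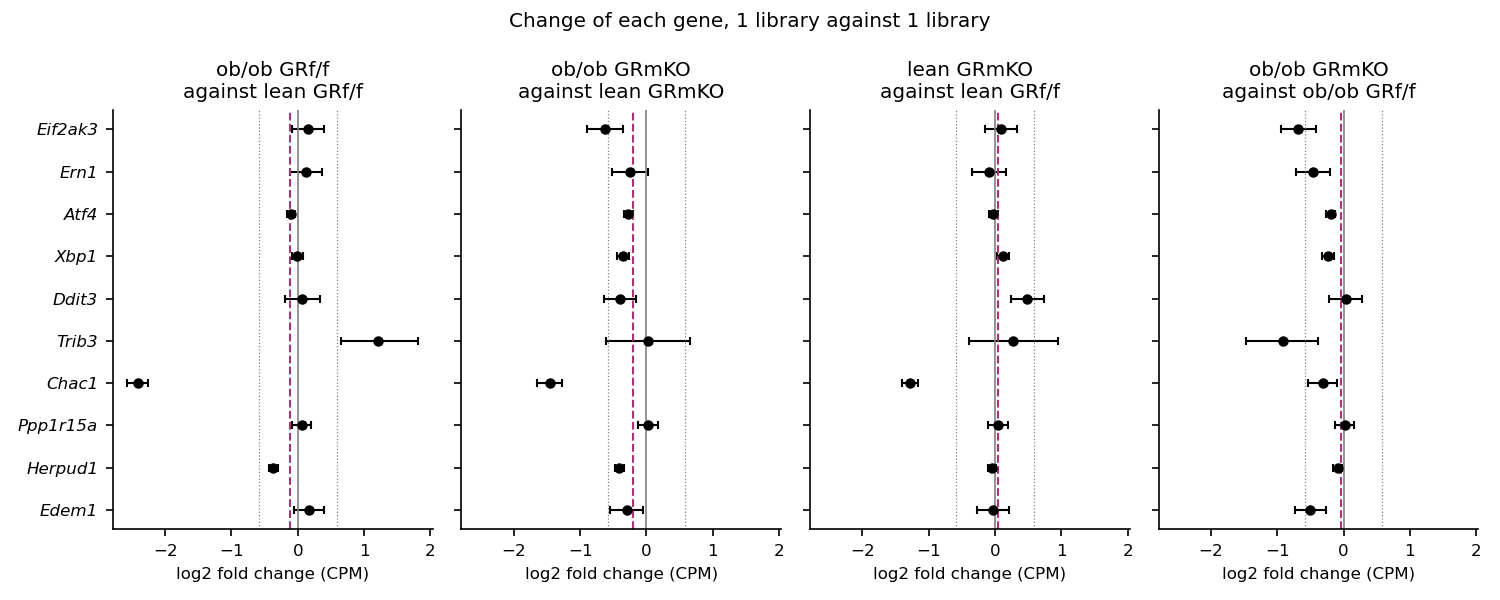
Log2 fold change of each of the 10 genes in the 4 comparisons, each of 1 library against 1 library. Points are ratios of CPM, lines are 95% counting intervals, dotted lines mark 1.5-fold and the dashed line is the median of all 14206 genes. Chac1 is past 1.5-fold in 3 comparisons, and 8 of the 10 genes lie below 0 in ob/ob GRmKO against ob/ob GRf/f muscle.

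The other genes of the pathways were taken from 9 lists of 150 genes in all, members included, of which 148 could be compared. Among the eIF2 kinases and their regulators, 0 of 14 were higher and 3 lower with obesity in GRf/f muscle, where 16.6% of all genes were lower. With TMM factors Eif2ak2 and Nck1 were under 1.5-fold and Eif2ak4 alone was lower, where 13.0% of all genes were. The largest difference was that of Eif2ak4, which encodes GCN2, the kinase that senses amino acid shortage. It was at 6.03 CPM in lean GRf/f, 6.68 in lean GRmKO, 2.21 in ob/ob GRf/f and 6.37 in ob/ob GRmKO muscle. The ob/ob GRf/f library alone was low, from 46.2 expected counts, and the log2 fold change was -1.45 against lean GRf/f (-1.98 to -0.96), while ob/ob GRmKO exceeded ob/ob GRf/f by 1.53 (1.04 to 2.05). The kinase PKR, encoded by Eif2ak2, was at 9.69, 8.31, 6.03 and 7.10 CPM.

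Among 10 genes for ATF4 and the proteins that act with it, most of them transcription factors, 2 were higher (Atf3 and Trib3) and 2 lower (Cebpb and Jdp2) with obesity in GRf/f muscle, where 7.95% and 16.6% of all genes were. The genes lower in ob/ob GRmKO than in ob/ob GRf/f muscle were 4 (Atf3, Cebpb, Nupr1 and Trib3), where 12.2% of all genes were lower. The list holds Atf4, Ddit3 and Trib3, which are described above, and Trib3 is not a transcription factor. Atf3, a factor that acts with ATF4 and CHOP, was at 7.54, 8.27, 23.7 and 12.8 CPM. Like Trib3, it was highest in ob/ob GRf/f muscle, with a log2 fold change of 1.65 against lean GRf/f (1.39 to 1.92) and of -0.89 in ob/ob GRmKO against ob/ob GRf/f (-1.11 to -0.67). Cebpb, which encodes a bZIP partner of ATF4, was at 139, 65.3, 70.0 and 44.3 CPM, highest in lean GRf/f and lowest in ob/ob GRmKO muscle. Its log2 fold change was -1.09 in lean GRmKO against lean GRf/f and -0.99 in ob/ob against lean GRf/f muscle. Jdp2, a repressor of the same family, was at 15.2, 8.40, 9.03 and 8.29 CPM, and only the lean GRf/f library was high. Nupr1, a stress-induced cofactor of transcription, was at 25.1, 21.5, 22.8 and 13.1 CPM, lowest in ob/ob GRmKO muscle.

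Of 14 stress outputs of ATF4 and CHOP, 1 was higher and 4 lower with obesity in GRf/f muscle (7.95% and 16.6% of all genes), 0 were higher and 6 lower with obesity in GRmKO muscle (7.79% and 24.0%), and 3 were higher and 3 lower in lean GRmKO than in lean GRf/f muscle (9.44% and 7.78%). With TMM factors the middle comparison gave 1 higher and 2 lower, where 12.7% and 16.0% of all genes were. Some of these genes rested on few counts, Fgf21 on 1 to 3, Gdf15 on 5 to 8 and Pmaip1 on 4 to 9. Among the 11 genes with a mean of at least 50 counts, the numbers were 0 and 3, 0 and 5, and 1 and 2, where 5.05% and 11.4%, 4.76% and 19.7%, and 4.87% and 3.61% of all genes with that mean were higher and lower. Besides Chac1, Ddit4, which encodes the mTORC1 inhibitor REDD1 and is also a target of GR, was at 93.2 CPM in lean GRf/f, 37.2 in lean GRmKO, 26.0 in ob/ob GRf/f and 23.9 in ob/ob GRmKO muscle. It was lower in every other library than in lean GRf/f, as Chac1 was. Tnfrsf10b, which encodes a death receptor, was at 4.78, 7.39, 2.96 and 3.69 CPM, with both ob/ob libraries below both lean libraries. Its counting intervals in lean GRf/f and ob/ob GRmKO muscle overlapped. Ero1a, an oxidase that serves disulfide formation in the ER, was at 14.3, 14.8, 14.6 and 9.48 CPM, low in ob/ob GRmKO muscle alone. Of 25 genes for amino acid supply, 0 were higher and 3 lower in lean GRmKO against lean GRf/f muscle, where 7.78% of all genes were lower, and 0 were higher and 6 lower in ob/ob GRmKO against ob/ob GRf/f muscle, where 12.2% were. The 6 became 4 with TMM factors, where 10.8% of all genes were lower. With obesity, 0 were higher and 3 lower in GRf/f muscle (7.95% and 16.6% of all genes), and 1 was higher and 4 lower in GRmKO muscle (7.79% and 24.0%). With TMM factors, Psat1 alone was still lower in GRf/f muscle (13.0% of all genes). In GRmKO muscle Slc1a5 and Wars were then under 1.5-fold, and Slc7a1 and Slc7a5 were higher (12.7% of all genes higher and 16.0% lower). The counts of 3 and 6 in GRmKO against GRf/f muscle include Slc7a11, at 3 to 8 expected counts, and without it they were 2 and 5 of 24. Psat1, an enzyme of serine synthesis, was at 7.54, 3.86, 4.27 and 2.72 CPM, highest in lean GRf/f muscle. Gpt2, which interconverts alanine and glutamate, was at 362, 232, 261 and 170 CPM, and each GRmKO library was below its GRf/f library, by -0.65 and -0.62 on the log2 scale. Aldh18a1, which starts proline synthesis, was at 10.9, 13.1, 13.5 and 5.80 CPM, low in ob/ob GRmKO muscle alone. Slc1a5, a glutamine transporter, was at 108, 78.2, 77.2 and 45.5 CPM. Both were lowest in ob/ob GRmKO muscle, and so was Pck2, a mitochondrial enzyme that makes phosphoenolpyruvate, at 4.96, 4.10, 3.12 and 2.28 CPM. The log2 fold change of Pck2 with obesity was -0.67 in GRf/f and -0.85 in GRmKO muscle.

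The summed level of the 21 ER chaperones and folding enzymes was lowest in ob/ob GRmKO muscle, at 1344 CPM, against 1646 in lean GRf/f, 1717 in lean GRmKO and 1657 in ob/ob GRf/f muscle. Of the 21 genes, 20 had values below 0 in ob/ob GRmKO against ob/ob GRf/f muscle, with a median of -0.32, 19 were below the median gene, and 2 were past 1.5-fold (12.2% of all genes). In ob/ob against lean GRmKO muscle 20 were below 0 and 16 below the median gene, with a median of -0.40 or -0.19 relative to that gene. There 6 were at least 1.5-fold lower, where 24.0% of all genes were, or 3 with DESeq2 size factors, where 15.7% were. In lean GRmKO against lean GRf/f muscle 0 were past 1.5-fold (9.44% of all genes were higher and 7.78% lower). With obesity in GRf/f muscle 1 was, Uggt1, a sensor of glycoprotein folding, which was 0.63 higher (7.95% and 16.6%). Sdf2l1, a partner of ER chaperones, was at 5.90, 7.34, 4.59 and 3.69 CPM. Ppib, a proline isomerase of the ER, had a log2 fold change of -0.93 in ob/ob against lean GRmKO muscle. Hspa5, which encodes the main ER chaperone BiP, was at 216, 220, 253 and 188 CPM, and the ob/ob GRmKO library was the lowest. Creld2, an ER folding factor induced by stress, was at 13.7, 12.4, 12.5 and 6.79 CPM, with a log2 fold change of -0.88 in ob/ob GRmKO against ob/ob GRf/f (-1.19 to -0.58). Hyou1, a chaperone of the Hsp70 family, was at 35.3, 28.7, 39.6 and 21.6 CPM, a change of -0.88 in the same comparison (-1.05 to -0.71). ERSE was present in the windows of 7 of the 18 chaperone genes that had one.

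**Figure D3:**
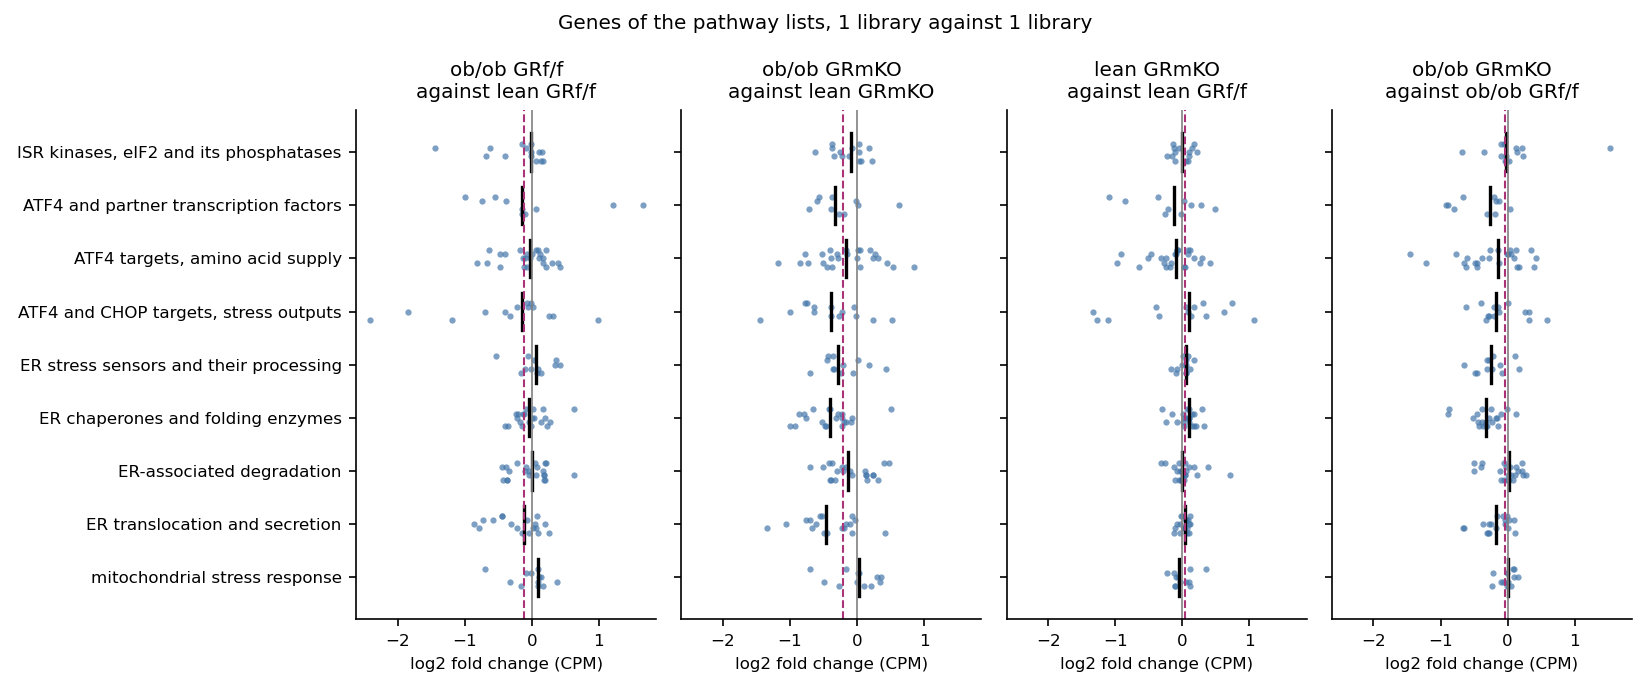
Log2 fold changes of the genes of 9 pathway lists in the 4 comparisons, each of 1 library against 1 library. Each point is a gene, black bars are medians of the lists, and the dashed line is the median of all genes. In ob/ob GRmKO against ob/ob GRf/f muscle, the chaperone list has a median of -0.32, against -0.04 for all genes.

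Of 18 genes for ER translocation and secretion, 0 were higher and 6 lower in ob/ob against lean GRmKO muscle, where 24.0% of all genes were lower, or 1 higher and 2 lower with TMM factors, where 16.0% were. Their median was -0.47, or -0.26 relative to the median gene. Sec61b, a subunit of the translocation channel, was at 28.7, 26.5, 16.6 and 10.5 CPM, and Sec61g, another subunit, at 44.0, 42.9, 24.3 and 20.5 CPM. Both were lower in the ob/ob libraries. Sec24d, a subunit of the coat of vesicles that leave the ER, was at 36.4, 38.3, 37.9 and 24.0 CPM, low in ob/ob GRmKO muscle alone. Of the 12 ER stress sensors and their processing enzymes, 0 were past 1.5-fold with obesity in GRf/f muscle, where 7.95% of all genes were higher and 16.6% lower. In the comparison where 12.2% of all genes were lower, 1, Creb3l1, was lower in ob/ob GRmKO than in ob/ob GRf/f muscle, with a log2 fold change of -0.65 (-0.80 to -0.50). Tram1, which assists translocation into the ER and was counted in this list, was at 45.4, 47.2, 40.7 and 29.1 CPM and lowest in ob/ob GRmKO muscle. Among 22 genes for ER-associated degradation, Syvn1, a ubiquitin ligase of this pathway, was the only gene past 1.5-fold in lean GRmKO against lean GRf/f muscle, where 9.44% of all genes were higher and 7.78% lower. It was at 16.2 CPM in lean GRf/f, 26.7 in lean GRmKO, 25.1 in ob/ob GRf/f and 29.4 in ob/ob GRmKO muscle. Of the 22, 0 were past the fold in ob/ob GRmKO against ob/ob GRf/f muscle, with a median of 0.02, and the summed level of the list was highest in ob/ob GRmKO muscle, at 1701 CPM against 1608 to 1669.6 in the other libraries. In ob/ob against lean GRmKO muscle 1 was lower, Edem2 (14.4, 13.1, 10.6 and 8.05 CPM), a relative of Edem1, where 24.0% of all genes were. With TMM factors Edem2 was under 1.5-fold, and Nploc4 and Edem3 were higher, where 12.7% of all genes were higher and 16.0% lower. Of 12 genes of the mitochondrial stress response, 0 were higher and 1 lower in each comparison of ob/ob with lean muscle, where 16.6% of all genes were lower in GRf/f and 24.0% in GRmKO muscle. With TMM factors 0 were lower in GRmKO muscle. This was Hspe1, a mitochondrial chaperone, at 44.6, 48.2, 27.6 and 29.5 CPM.

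Markers of other cells also differed between these libraries. In ob/ob against lean GRmKO muscle, 6 of 6 macrophage, 4 of 4 endothelial and 4 of 5 fibroblast markers were lower, with medians of -1.48, -0.71 and -0.86, where 24.0% of all genes were lower. The fifth fibroblast marker, Col1a1, was 0.85 higher, and 5 of 5 erythroid markers were lower, with a median of -1.24. Of the 6 adipocyte markers, Fabp4 and Cfd were lower too, and Lep was 2.84 higher (7.79% of all genes were higher). With TMM factors the endothelial markers Pecam1, Cdh5 and Kdr and the fibroblast marker Col3a1 were under 1.5-fold. The macrophage and erythroid markers, Tek, Pdgfra, Dcn, Lum, Fabp4 and Cfd were still lower, where 16.0% of all genes were. In ob/ob against lean GRf/f muscle, 5 of 5 erythroid markers were lower too, with a median of -1.23, as were 2 of 6 macrophage and 2 of 6 adipocyte markers (16.6% of all genes). The adipocyte marker Lep was 2.30 higher and the fibroblast marker Col1a1 1.68 higher there (7.95% of all genes were higher). With TMM factors the adipocyte marker Fabp4 was under 1.5-fold there (13.0% of all genes were lower). In lean GRmKO against lean GRf/f muscle, 5 of 6 adipocyte markers were lower, with a median of -0.87 (7.78% of all genes), and 0 of the macrophage, endothelial, fibroblast and erythroid markers were. There 6 of 6 macrophage and 4 of 4 endothelial markers were above 0 by less than 1.5-fold, with medians of 0.38 and 0.25. The fibroblast marker Lum was 0.61 higher (9.44% of all genes were higher). The part of these cells in the values of Chac1, Trib3 and Atf3 was not tested. In ob/ob GRmKO against ob/ob GRf/f muscle, 4 of 6 macrophage, 3 of 5 fibroblast, 5 of 6 adipocyte and 0 of 4 endothelial markers were lower (12.2% of all genes). Over the libraries, the macrophage markers summed to between 207 and 565 CPM, the endothelial markers to between 286 and 476, and the fibroblast markers to between 3997 and 6996. None of these markers was at 0. The markers of B and plasma cells, which are rich in ER chaperones, summed to between 1.24 and 2.03 CPM. The part of these cells in the lower levels of the chaperone genes, Eif2ak3, Ern1 and Edem1 in the ob/ob GRmKO library was not tested. Slow fiber markers also differed, with 7 of 7 higher in both comparisons of ob/ob with lean muscle (7.95% and 7.79% of all genes), 2 of 7 in lean GRmKO against lean GRf/f (9.44%) and 3 of 7 in ob/ob GRmKO against ob/ob GRf/f muscle (8.59%). Their medians were 1.29, 1.29, 0.43 and 0.50. Of the 8 skeletal muscle markers, 1 was higher with obesity in GRf/f muscle, Myh1 (0.79), where 7.95% of all genes were. In GRmKO muscle 2 were, Myh1 (0.84) and Myh4 (0.86), where 7.79% of all genes were.

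**Figure D4:**
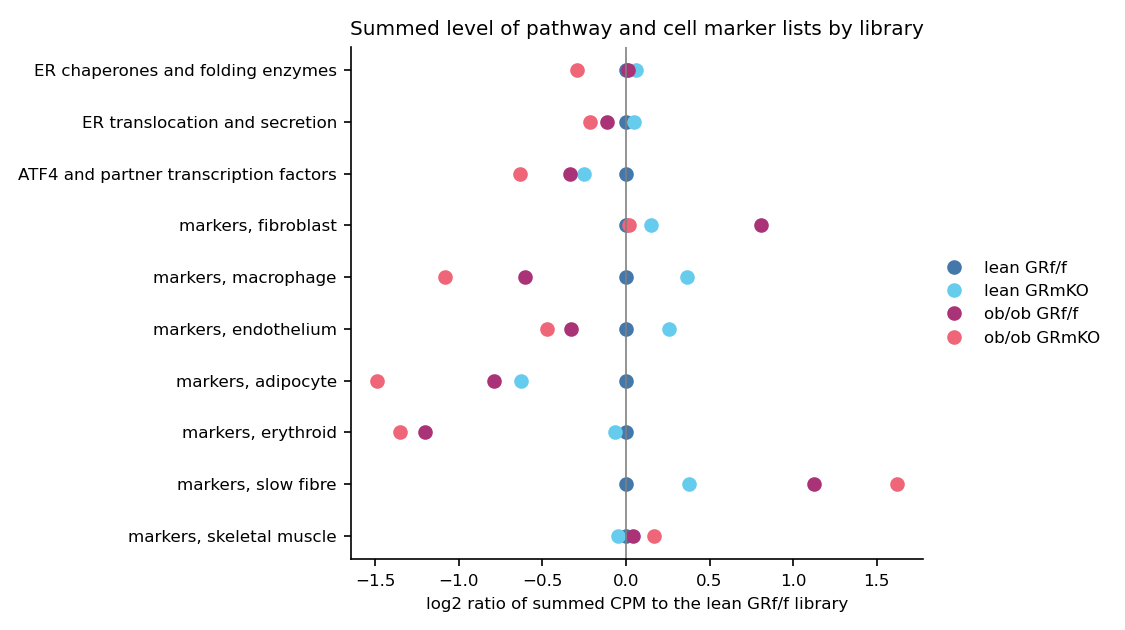
Summed CPM of 3 pathway lists and 7 cell marker lists in each library, as the log2 ratio to the lean GRf/f library. Each point is 1 library. The chaperone sum is lowest in ob/ob GRmKO muscle (-0.29), where the macrophage (-1.08), endothelial (-0.47), erythroid (-1.35) and adipocyte (-1.49) sums are also lowest. The adipocyte sum is carried mostly by Fabp4 and Cfd, while Lep is at 42.1 CPM in ob/ob GRmKO and 14.2 CPM in lean GRf/f muscle. The fibroblast sum, carried by collagen genes, is highest in ob/ob GRf/f muscle (0.81).

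Genes of the lists whose pattern was nearest to a member were ranked by the root mean square difference of centred log2 CPM over the 4 libraries, among 143 genes with a mean of at least 50 counts. For Atf4 they were Canx, Yme1l1 and Mbtps1 (0.03 to 0.04), for Ddit3 they were Derl2, Htra2 and Ufd1 (0.08 to 0.11), and for Trib3 they were Atf3, Creb3l1 and Creb3l2 (0.27 to 0.32). For Chac1, added after its values had been seen, they were Ddit4 at 0.35, Cebpb at 0.60 and Sec61b at 0.61. With 4 libraries, near patterns are common, and these distances are a description.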

How the data were processed

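Gastrocnemius RNA of 3 mice per group was pooled and sequenced by the authors as 1 library per group. The deposited values are expected counts, which the authors obtained with Salmon 1.2.1 on protein-coding transcripts and summarized to gene names in R 3.5.0 as length-scaled TPM. They are not normalized between libraries. Here genes at 0 in any library were left out, and the remaining 14206 were scaled to CPM. With 1 library per group, the simulated replicates of the study's NOISeq analysis were not used. Counts were rounded for intervals (scipy 1.17.1). The calculation of the ratio intervals was checked on simulated Poisson counts, which hold counting error only and no spread between mice. TMM (edgeR 4.0.16) and DESeq2 1.42.0 gave scaling factors only, among 9 alternatives. Besides the members, the genes named were the 2 that differed most in each list and comparison among those past 1.5-fold with a mean of at least 50 counts, and others were named for their role after their values had been seen. The members and lists were chosen with earlier results of these data known. Coordinates are from GENCODE M21 and promoters from RefSeq. Each alternative changed 1 choice: TMM, DESeq2 or upper quartile factors, library totals that omit the 50 most abundant genes, CPM over all gene names, 3 filters on low counts, and a 2-fold change. One listed gene, Hm13, was not analysed here.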

Additional observations from a re-analysis of the deposited data

Results flagged for a closer look

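Among the 148 compared pathway genes, 15 gave opposite signs under the same contrast in the 2 groups it was made in, with both counting intervals apart from 0. These were 10.1% of the pathway genes, and the same held for 1361 of all 14206 compared genes (9.58%), so the share was near that of all genes. The differences were not tested over mice. The change with obesity was 0.30 in GRf/f and -1.18 in GRmKO muscle for Aldh18a1 (difference -1.48), 0.43 and -0.21 for Creb3l1 (-0.64), 0.17 and -0.41 for Hyou1 (-0.58), and 0.22 and -0.23 for Hspa5 (-0.45). It was 0.17 and -0.73 for Wars, a tRNA synthetase (-0.90), 0.13 and -0.20 for the disulfide isomerase gene P4hb (-0.33), and -0.11 and 0.11 for Vcp, which extracts proteins from the ER (0.22). Relative to the median gene, P4hb and Vcp had the same sign in both genotypes, Hspa5 had 0.34 in GRf/f and -0.02 in GRmKO muscle, and the value of Creb3l1 in GRmKO muscle was 0.01 with DESeq2 size factors.

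The change with loss of GR was positive in lean and negative in ob/ob muscle for 9 genes. It was 0.12 and -0.23 for Xbp1 (difference -0.35), 0.42 and -0.48 for Wars (-0.90) and 0.17 and -0.14 for Txnip (-0.32). The other 6 were folding enzymes, with 0.29 and -0.39 for Pdia4 (-0.68), 0.14 and -0.45 for Pdia3 (-0.59), 0.17 and -0.37 for Ppib (-0.53), 0.15 and -0.31 for Txndc5 (-0.46), 0.20 and -0.14 for Pdia6 (-0.34), and 0.09 and -0.24 for P4hb (-0.33). Bfar, an ER ubiquitin ligase, had -0.17 in lean and 0.17 in ob/ob muscle (0.33). Markers of other cells also changed sign with loss of GR. Of the macrophage markers, 6 of 6 were above 0 in lean (median 0.38) and 6 of 6 below 0 in ob/ob muscle (-0.65). Of the endothelial markers, 4 of 4 were above 0 (0.25) and 4 of 4 below 0 (-0.13). The fibroblast medians were 0.29 and -0.63, and 6 of 6 adipocyte markers were below 0 in both. The part of these cells in the 9 genes was not tested.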

How the results depend on the processing

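The members past 1.5-fold were 2 in ob/ob against lean GRmKO muscle and became 1 (Chac1) with TMM factors, DESeq2 size factors, upper quartile scaling or library totals that omit the 50 most abundant genes, and 1 at 2-fold, since Eif2ak3 lies close to the fold. In ob/ob GRmKO against ob/ob GRf/f muscle the 2 members became 0 at 2-fold. All other counts of members were the same under the 9 alternatives. Of the 36 counts over the pathway lists, 27 stayed within 1.5 times with TMM factors, 26 with DESeq2 size factors and 9 at 2-fold. Over the 40 log2 values of members, the sign changed in 3 with TMM factors, 2 with DESeq2 size factors, 1 with upper quartile scaling and 1 without the 50 most abundant genes, all of them values between -0.10 and 0.05 (Atf4, Xbp1 and Ppp1r15a). No paired analysis was possible because each group has 1 library, and leaving out a library removes both comparisons that use it and leaves the others as they are. Depth limits Trib3 most, with 37.0 to 87.0 expected counts.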

Other observations

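Over all 11140 other genes with a mean of at least 50 counts, chosen after the values had been seen, the patterns nearest to Chac1 were those of Slc1a3, Amd1 and Slc25a30. Slc1a3, a glutamate transporter, was at 14.1 CPM in lean GRf/f, 6.75 in lean GRmKO, 2.91 in ob/ob GRf/f and 2.67 in ob/ob GRmKO muscle. Amd1, which makes the aminopropyl donor of polyamine synthesis, was at 2051, 935, 415 and 244 CPM, and Slc25a30, a mitochondrial carrier, at 30.4, 10.8, 7.30 and 5.15 CPM. Each had the order of libraries of Chac1. The patterns nearest to Trib3 were those of Fjx1, Fat1 and Loxl4, each highest in ob/ob GRf/f muscle. Fat1, an atypical cadherin, was at 8.84, 9.51, 17.9 and 9.49 CPM, and Loxl4, an enzyme that crosslinks extracellular matrix, at 4.01, 4.38, 8.01 and 4.26 CPM.

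CARE was present in the windows of 332 of 11146 compared genes, with a median log2 fold change of -0.14 with obesity in GRf/f muscle, against -0.11 for all genes. The 17 pathway genes with CARE included 3 that were higher and 3 that were lower in that comparison, among the higher ones Fgf21 from 1 and 2 counts. Of all 332 genes with CARE, 27 were higher and 66 lower, and of all compared genes 7.95% and 16.6%. Of 9 compared pathway genes with ERSE, 8 had values below 0 in ob/ob GRmKO against ob/ob GRf/f muscle, with a median of -0.27. Of all 18 compared genes with ERSE, which include these 9, 13 were below 0 there, with a median of -0.20. The 2 counts are therefore not independent. Of all compared genes 55.9% were, with a median of -0.04. In the same comparison 12 of the 17 pathway genes with CARE were below 0, with a median of -0.28. Of all 332 compared genes with CARE 179 were, with a median of -0.02, near that of all genes. Of all 115 compared genes with UPRE 80 were, with a median of -0.13. With obesity, 6 of the 9 pathway genes with ERSE were below 0 in GRf/f muscle (62.1% of all genes) and 8 in GRmKO muscle (67.2%). In lean GRmKO against lean GRf/f muscle 2 were (42.7%).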
